A study of Rattus norvegicus with 4 samples.

Results

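The 10 genes described here encode transcription factors that specify and maintain the intestinal epithelium: Cdx1, Cdx2, Hnf4a, Klf4, Klf5, Gata6, Foxa1, Foxa2, Hes1 and Elf3. They were chosen by name among the 15542 named genes of a rat Agilent array, where 15 probes of 60 bases carry them. Their RNA was measured in the colon mucosa of rats of the inbred F344 strain after colitis had been induced with dextran sodium sulphate (DSS), a polymer that injures the colonic epithelium, given at 5% in the drinking water for 5 days. Before DSS, the treated rats received resveratrol, a plant polyphenol, in the feed for 20 days (1 mg per kg each day), while the control rats ate standard chow. Both groups therefore carried the DSS injury, and the labels name no genotype or age that differs between them. Each of 4 arrays held Cy5-labelled RNA pooled from 2 of the 8 resveratrol rats (rats 1 and 2, 3 and 4, 5 and 6, and 7 and 8, called replicates 1 to 4) against Cy3-labelled RNA of a pool of control rats.

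All values are log2 ratios of resveratrol plus DSS over the DSS control pool unless stated otherwise, so a positive value is a higher level with resveratrol and 1.00 is a doubling. The control pool had no array of its own and the dyes were never exchanged. The test of the mean ratio against 0 in limma therefore leaves out the spread among control rats and any dye effect on a probe. Values after ± are moderated standard errors, n is the number of arrays, and adjusted p-values come from that limma fit with Benjamini-Hochberg adjustment over all 18869 probes tested, at a threshold of 0.05. For a test, a probe had to exceed background clearly on 3 or more arrays, in either channel, and to keep 2 or more values, and a gene is represented by its brightest tested probe.

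The intestinal lining is renewed from crypt stem cells, and a small set of factors keeps it intestinal. The CDX homeodomain proteins define hindgut identity and switch on genes of the mature lining, HNF4A is a nuclear receptor that drives absorptive genes, and the zinc-finger protein GATA6 and the forkhead proteins FOXA1 and FOXA2 open and bind gut enhancers. KLF5 is found in dividing crypt cells and KLF4 in cells that have left the cycle, while ELF3 is an epithelial ETS factor of the differentiated lining. HES1 is the repressor through which Notch signalling favours absorptive over secretory cells.

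The arrays lay on 2 slides, with replicates 1 and 2 on slide 1 and replicates 3 and 4 on slide 2. Spots that the scanner software marked as outliers were left out of the main values, and they made up 3.45% and 4.68% of the spots on slide 1 but 11.03% and 13.7% on slide 2. Among spots brighter than a log2 intensity of 11 they made up 16.8% and 18.2% on slide 1 and 51.1% and 60.8% on slide 2. They were left out of the loess normalisation as well, so keeping them also moved the values of spots without a flag. Ratios of any 2 arrays correlated across probes with r between 0.70 and 0.89, and probes are not independent replicates.

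Of the 10 lineage factors, 8 could be tested, 6 were called higher and 0 lower, and 2 were not called. Over all 9431 genes tested, 25.7% were called higher and 19.6% lower (2420 and 1844 genes). The gene counts were 3619 and 721 with arrays centred on their medians in place of loess, where 8 factors were called higher, and the higher genes numbered 1031 without replicate 1 and 1071 without replicate 2. At an unadjusted p under 0.05 in the same limma fit, 0 factors were lower by their brightest probe. By probe, 10 of the 13 tested probes of these genes were called higher and 0 lower (1 at an unadjusted p under 0.05), beside 24.4% and 22.7% of all probes tested. Among the probes called higher, Gata6 probes 2 and 3 (described below) passed the filter only through the resveratrol channel, where they read higher. The median over the 8 tested factors was 0.60, beside 0.02 over all tested genes. By size, the called factors were Cdx1 at 1.12, Hnf4a at 1.01, Elf3 at 0.85, Gata6 at 0.64, Hes1 at 0.57 and Klf5 at 0.55. The ranges of 1 standard error around neighbours in that order overlapped. Klf4 and Cdx2 did not pass the threshold, and Foxa1 and Foxa2 gave no testable value. In these bulk samples, more cells of a type and more RNA per cell cannot be told apart. When the standard error was widened by the square root of 2, only Cdx1 of the 6 kept its call by the brightest probe. With that widening, 765 genes in all were called higher. It would fit a separate control sample on each array. The error of a pool shared by all arrays does not average out over them, so the Cdx1 call was not tested against it.

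**Figure D1:**
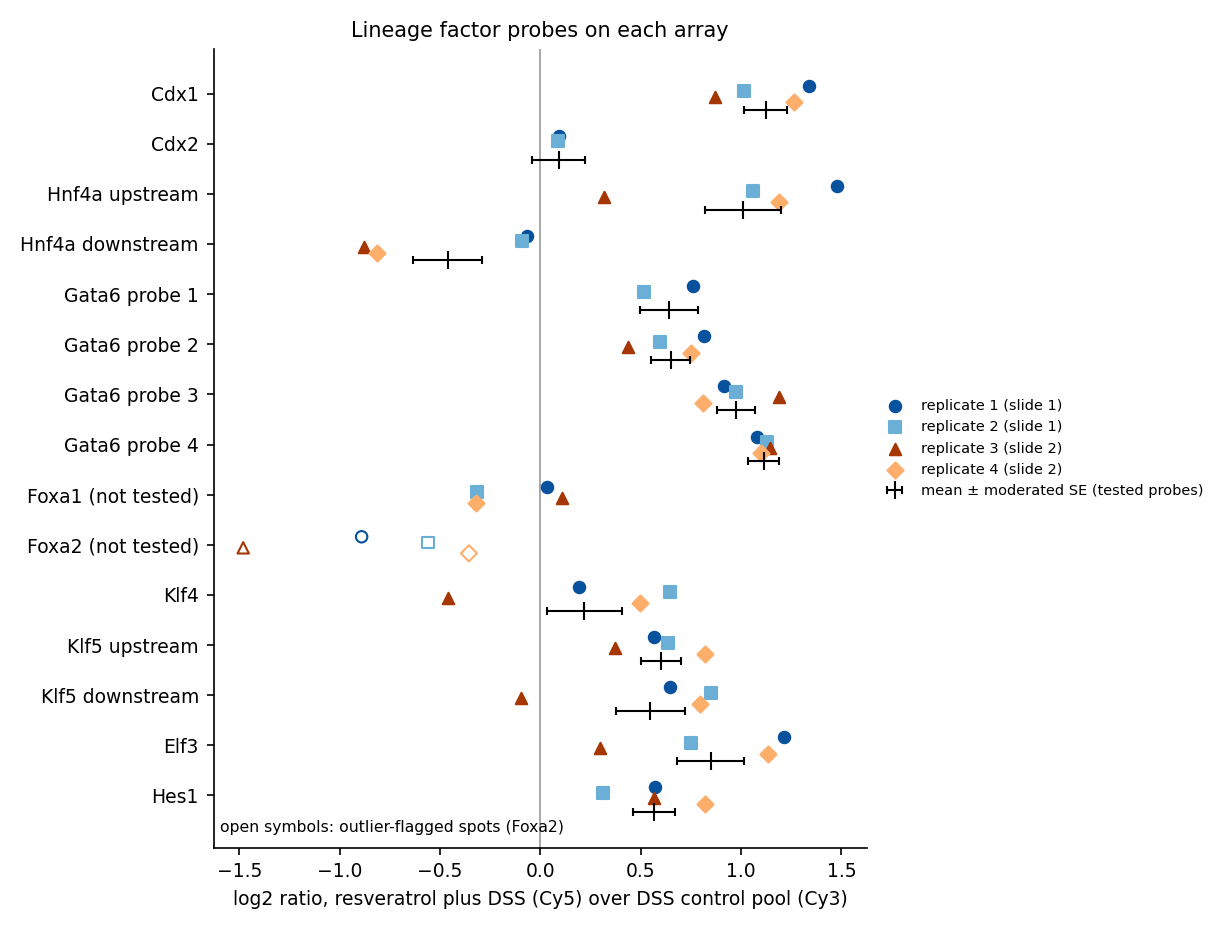
Log2 ratio (x axis, resveratrol plus DSS over DSS control pool) of each of the 15 probes of the 10 factors (rows) on the 4 arrays (symbols, coloured by slide), with the mean and moderated standard error of the 13 tested probes as black bars. The 4 Cdx1 values and the 4 values of Gata6 probe 4 lie well to the right of 0, and the open symbols are the outlier-flagged Foxa2 spots, all to the left of 0.

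The caudal-type homeobox genes gave unequal readings. Cdx1, whose product marks the posterior gut epithelium, had ratios of 1.34, 1.01, 0.87 and 1.26 on replicates 1 to 4. Every array was well above 0, with replicate 3 the lowest. The mean was 1.12 ± 0.11 (n = 4, adjusted p = 0.00409), a 2.18-fold higher level with a 95% interval of 0.86 to 1.38 on the log2 scale. Its probe lies at chr18:57056291-57056350 on the minus strand of rn3, the build named in the array files, and reads as follows, without the shared letters described for Hnf4a below.

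Cdx1: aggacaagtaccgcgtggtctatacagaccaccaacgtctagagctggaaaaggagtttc

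Cdx2, the paralogue that acts as the main regulator of intestinal identity, was read by a bright probe at chr12:8333273-8333332. It gave 0.09 and 0.09 on replicates 1 and 2, and its spots on both arrays of slide 2 carried an outlier flag. The mean was 0.09 ± 0.13 (n = 2, adjusted p = 0.587), with a 95% interval of -0.27 to 0.45. With the flagged spots kept, the 4 arrays read 0.35, 0.23, 0.32 and 0.11. All 4 of these were positive and small beside those of Cdx1. Under median centring, which raised the median of all genes to 0.25, Cdx2 stood at 0.60 and passed (adjusted p = 0.0343). On the arrays where both genes were measured, Cdx1 exceeded Cdx2 by 1.25 and 0.93, and with flagged spots kept by 1.09, 0.88, 1.18 and 1.60 (mean 1.19, SD 0.30, n = 4). The direction was the same on 4 of 4 arrays, and the exact two-sided sign-flip test gave p = 0.125, the smallest that 4 arrays allow.

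Hnf4a, the nuclear receptor gene, was read by a pair of probes 18.7 kb apart on chromosome 3 that disagreed. The upstream probe lies at chr3:154370066-154370125 and the downstream probe, spotted 10 times on each array, at chr3:154388735-154388794. Their sequences are given because the results for the gene turn on them. Capitals mark ACCTCA, one of a pair of overlapping hexamers, CACCTC and ACCTCA, picked in earlier work on these data from their highest probes and searched here on the probe strand.

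Hnf4a upstream: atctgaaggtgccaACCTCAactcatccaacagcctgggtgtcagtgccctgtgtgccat
Hnf4a downstream: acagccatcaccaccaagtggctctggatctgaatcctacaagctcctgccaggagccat

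The upstream probe gave 1.48, 1.06, 0.32 and 1.19 on replicates 1 to 4. All 4 arrays were positive, with replicate 3 far below the others. The mean was 1.01 ± 0.19 (n = 4, adjusted p = 0.0112). The downstream probe gave -0.07, -0.09, -0.88 and -0.81, a mean of -0.46 ± 0.17 (n = 4, adjusted p = 0.0674). Those values split by slide, near 0 on slide 1 and negative on slide 2. Behind them stood 9 and 9 of the 10 spots on slide 1, but 2 and 1 of 10 on slide 2, where the other spots were flagged. With flagged spots kept, the downstream probe read 0.21, 0.07, 0.38 and 0.33 (mean 0.25), so its sign depended on that choice, and the upstream probe read 1.73, 1.21, 2.42 and 1.86 (mean 1.80). Upstream minus downstream was 1.55, 1.15, 1.20 and 2.00 (mean 1.47, SD 0.39), and 1.52, 1.13, 2.04 and 1.53 with flagged spots kept (mean 1.56, SD 0.37). The means were alike, while replicates 3 and 4 moved in opposite directions. The gap was above 0 on 4 of 4 arrays either way (exact two-sided sign-flip p = 0.125, the smallest possible). With the mean of both probes in place of the brightest, Hnf4a stood at 0.27 and was not called (adjusted p = 0.206). On slide 2 alone the upstream probe stood at 0.75 and was not called (adjusted p = 0.0864), while the downstream probe stood at -0.85 and was called lower (adjusted p = 0.0461). The downstream probe was also called lower over all 4 arrays in the authors' value table, at -0.57 (adjusted p = 0.0254). The higher call for Hnf4a therefore rests on 1 of its 2 probes.

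**Figure D2:**
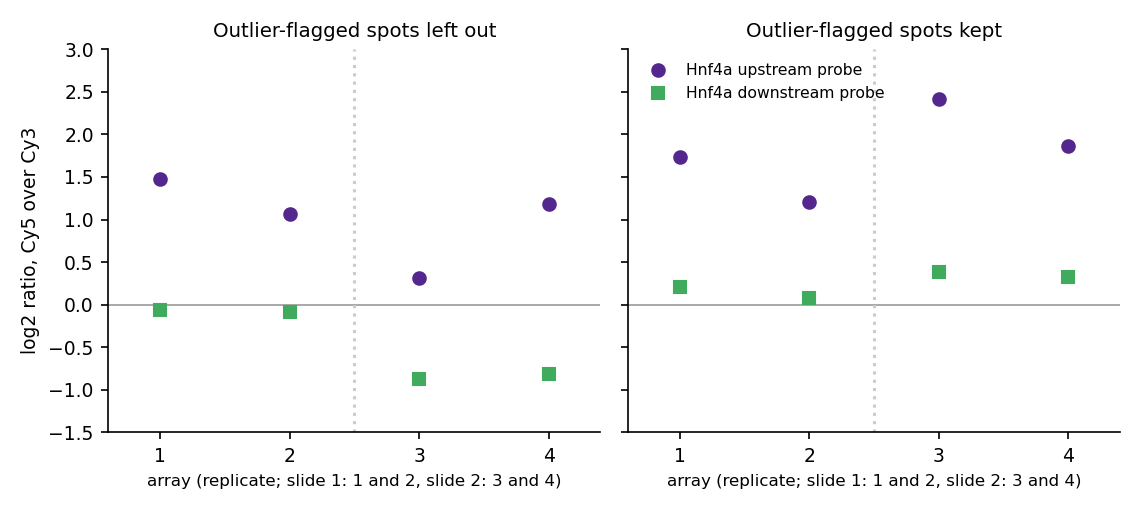
Log2 ratio (y axis) of the upstream and downstream Hnf4a probes on the 4 arrays (x axis), with outlier-flagged spots left out (left panel) or kept (right panel). The upstream probe lies above the downstream probe on every array in both panels, while the downstream probe moves from below to above 0 when the flagged spots are kept.

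Since the hexamers were picked from the highest probes of these data, higher values are built into the probes that hold them, and the following is a description. Tested probes that hold either hexamer numbered 718 (3.81% of 18869), had a median ratio of 0.20 against -0.03 for the others, and were called higher in 38.3% of cases against 23.8%. Of the 15 probes of the lineage factors, 2 held it: Hnf4a upstream and Gata6 probe 2. Without all such probes, 5 of the factors were called higher and 0 lower, and the median over the 8 tested, with Hnf4a then read by its downstream probe, was 0.56. Base composition of the factors' probes ranged from 35.0% to 55.0% G and C, with a median of 45.0% beside 43.3% over all probes.

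Gata6, the zinc-finger factor of crypt and proliferating epithelium, was the factor with the most probes, and all 4 were called higher. Probe 1 at chr18:2512492-2512551 is the brightest and lies 21.6 kb upstream of the other three, which stand within 0.703 kb of one another. Probe 1 and a 30-base stretch of probe 2 around its hexamer, in capitals, read as follows.

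Gata6 probe 1: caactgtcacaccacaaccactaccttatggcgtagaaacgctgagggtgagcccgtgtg
Gata6 probe 2: ctgagaacagtgACCTCAagtattcaggtc

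Probe 1 gave 0.76 and 0.52 on replicates 1 and 2, with both spots of slide 2 flagged, and a mean of 0.64 ± 0.14 (n = 2, adjusted p = 0.0307). Probe 2, at chr18:2534127-2534186, gave 0.82, 0.59, 0.44 and 0.75 (mean 0.65 ± 0.10, n = 4, adjusted p = 0.00669), with the control channel well above background on 1 of 4 arrays. Probe 4, at chr18:2534830-2534889, gave 1.08, 1.13, 1.14 and 1.10 (mean 1.11 ± 0.08, n = 4, adjusted p = 0.00363), and its SD of 0.03 over arrays was the smallest among the factors' probes with 4 values. Probe 3, at chr18:2534368-2534427, gave 0.92, 0.97, 1.19 and 0.81 (mean 0.97 ± 0.09, n = 4, adjusted p = 0.00409). In the control channel it never stood well above background, and in the resveratrol channel it did on 3 of 4 arrays. Probes 2 and 3 thus passed the filter only through the channel in which they read higher, so their calls add no separate support. Set against the dimmest control signal that still counted as above background, the level with resveratrol was 1.53-fold higher. This is an approximate bound, since undetected spots can be brighter than that signal. The sizes of these dim probes depended on the signal used: with the scanner's processed signals probe 3 read 2.19 and probe 2 read 1.12, and in the authors' value table they read 2.21 and 1.18. With flagged spots left out, the array that was lowest for Cdx1 and Hnf4a, replicate 3, was the highest of the 4 for Gata6 probes 3 and 4. That contrast was lost with flagged spots kept. Replicate 3 was then the highest array for the upstream Hnf4a probe (2.42), and for Cdx1 (1.49) it lay above replicates 1 and 2 (1.44 and 1.11).

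The forkhead genes Foxa1 and Foxa2 gave no value in the test. The Foxa1 probe at chr6:77979647-77979706 stood well above background in the control channel on 1 array and in the resveratrol channel on 0, so Foxa1 was not tested. Its ratios of 0.03, -0.31, 0.11 and -0.32 had no common sign and no fold can be given. Foxa2, read at chr3:136644613-136644672, was well above background in both channels on all 4 arrays, but its control-channel spot was flagged as non-uniform on every array, so no value entered the fit. With flagged spots kept it gave -0.89, -0.56, -1.48 and -0.36. All 4 arrays were negative, and the mean was -0.82 (adjusted p = 0.00766 in the fit with flagged spots kept, and -0.72 with adjusted p = 0.0523 when arrays were also centred on their medians in place of loess). It was then the single factor called lower, against 7 called higher. Foxa3, a relative expressed in gut endoderm, was called higher at 0.71 ± 0.09 (n = 4, adjusted p = 0.00521), with no array well above background in the control channel and an approximate bound of 1.42-fold. Its probe thus passed the filter only through the resveratrol channel.

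The Krüppel-like factors were read on all 4 arrays. Klf5, the crypt factor, had a downstream probe (chr15:83133888-83133947) at 0.64, 0.85, -0.10 and 0.79. On replicate 3 alone it was below 0. Its mean was 0.55 ± 0.17 (n = 4, adjusted p = 0.0423). That call was lost without replicate 1, 2 or 4 (adjusted p = 0.118, 0.142 and 0.121) and with slide as a random block (adjusted p = 0.0678), and in 9 of 20 settings in all. The upstream probe (chr15:83122433-83123577, a span longer than the probe itself) gave 0.57, 0.64, 0.37 and 0.82, positive on every array and with a mean of 0.60 ± 0.10 (n = 4, adjusted p = 0.00853).

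Klf4, the factor of cells that have stopped dividing and of goblet cells, gave 0.19, 0.64, -0.46 and 0.50 at chr5:73452107-73452166. The arrays lay on both sides of 0, replicate 3 again lowest. The mean of 0.22 ± 0.19 did not pass (n = 4, adjusted p = 0.353), with a 95% interval of -0.24 to 0.68. It passed without replicate 3, at 0.44 (adjusted p = 0.0255), on slide 1 alone, at 0.42 (adjusted p = 0.0256), and with flagged spots kept, at 0.68 (adjusted p = 0.00866). The downstream Klf5 probe exceeded Klf4 by 0.45, 0.21, 0.36 and 0.30 (mean 0.33, SD 0.10, above 0 on 4 of 4 arrays). The exact two-sided sign-flip test again gave the floor of 0.125. The upstream Klf5 probe exceeded it by 0.38 on average (SD 0.34), on 3 of 4 arrays (exact p = 0.25). With 4 arrays this test cannot pass 0.05, so it does not decide whether the genes differed.

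Elf3, the epithelial ETS factor, gave 1.21, 0.75, 0.30 and 1.13 at chr13:48272913-48272942 (a span of 30 bases, shorter than the probe itself). Every array was positive and replicate 3 was again the lowest. Its mean of 0.85 ± 0.17 (n = 4, adjusted p = 0.0125) is a 1.80-fold higher level. Across the 11 tested probes with 4 values, replicate 3 was the lowest array for 8. With flagged spots kept it was the lowest for 1 of the same 11, so the low standing of that array depended on leaving flagged spots out. All of these probes but the downstream Hnf4a probe had 1 spot per array, without a flag. Their values therefore moved only through the loess curve, which for Elf3 on replicate 3 meant a change from 0.30 to 1.63.

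Hes1, the Notch-induced repressor, gave 0.57, 0.31, 0.57 and 0.82 at chr11:72662727-72662786. All 4 arrays were positive, with replicate 2 lowest and replicate 4 highest. The mean was 0.57 ± 0.10 (n = 4, adjusted p = 0.0108), or 1.48-fold. The stretch of the Hes1 promoter below, from RefSeq (GRCr8, chr11:84213133-84213199, minus strand), is shown for the letters GTGGGAA (capitals), the core bound by the Notch partner RBPJ, which begin 124 bases before the start site.

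Hes1 promoter: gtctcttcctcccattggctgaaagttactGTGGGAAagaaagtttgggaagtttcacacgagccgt

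On either strand, these letters occur in 5.27% of the 33469 RefSeq promoters over the same 250 bases, and of the 9 lineage factors with a promoter in the table, Hes1 alone holds them. Foxa1 has no entry there. Among 16 tested genes of the Notch pathway, 3 were called higher and 1 lower, with a median of 0.02. Ncstn, which encodes a part of gamma-secretase, the protease that frees the Notch intracellular domain, was higher at 0.67 ± 0.13 (n = 4, adjusted p = 0.0121). Adam17, a protease that can shed the Notch ectodomain, was higher at 0.37 ± 0.10 (n = 4, adjusted p = 0.0310), and the ligand gene Dll3 was lower at -0.53 ± 0.14 (n = 4, adjusted p = 0.0283). The shares called, 3 and 1 of 16, were below those of all genes, and the count of lower genes was 0 without replicate 1, 2 or 4.

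Relatives of the 10 factors in the same families split in both directions. Of 21 tested, 5 were called higher and 7 lower, beside 25.7% and 19.6% of all genes tested. Their median was -0.23, and 4 were lower without replicate 1 or 2. Hes3, a neural HES gene, had the highest ratio at 2.15 ± 0.15 (n = 3), on a probe holding a hexamer. Hes6, an antagonist of HES1, rose to 1.21 ± 0.20 (n = 4), while its other probe read 0.36, and Klf9 rose to 0.90 ± 0.21 (n = 4), while its other probe read 0.34. The ETS gene Elf4, active in lymphocytes, fell to -0.95 ± 0.09 on all 4 arrays, the Notch-responsive vascular repressor Hey2 to -0.89 ± 0.16 and the blood and endothelial factor Gata2 to -0.82 ± 0.16. Adjusted p-values of these 6 genes lay between 0.00409 and 0.0196.

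Other factors of the gut and absorptive lineage included 7 called higher and 1 lower of 15 tested, beside 25.7% and 19.6% of all genes. Their median was 0.25, and 3 were higher and 0 lower without replicate 1 or 2. The vitamin D receptor Vdr rose to 0.90 ± 0.14 (n = 4, adjusted p = 0.00727), its dimer partner Rxra to 0.66 ± 0.12 (n = 4, adjusted p = 0.00973) and the hindgut homeobox gene Hoxb13 to 0.64 ± 0.13 (n = 4, adjusted p = 0.0141). Prdm1, which represses mature enterocyte genes in the suckling gut and is also a plasma cell factor, fell to -0.52 ± 0.10 (n = 3, adjusted p = 0.0170). Among 10 tested factors of secretory and enteroendocrine cells, 2 were called in each direction, beside the same shares of all genes. Their median was -0.22. Without replicate 1 or 2, 1 was higher, and without replicate 2 or 4, 1 was lower. Insm1, an enteroendocrine factor, was higher at 0.63 ± 0.11 and Creb3l1 at 0.61 ± 0.12. The enteroendocrine gene Pax6 was lower at -0.48 ± 0.13 (n = 2, adjusted p = 0.0457).

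Of 22 tested textbook target genes of the CDX and HNF4A proteins, 7 were called higher and 1 lower, with a median of 0.39. Over all genes, 25.7% were called higher and 19.6% lower. Muc2, the main mucin of goblet cells, had 1.66, 1.64, 0.97 and 2.24 on replicates 1 to 4 (mean 1.63 ± 0.20, adjusted p = 0.00492). Krt20, a keratin of mature surface cells, stood at 1.09 ± 0.30 (n = 2, adjusted p = 0.0465) and the brush-border protease gene Mep1a at 0.74 ± 0.14 (n = 4, adjusted p = 0.0113). Lct, the lactase gene, was lower at -0.51 ± 0.14 (n = 4, adjusted p = 0.0332), with -0.01 on its other probe. The count of target genes moved with single arrays: 3 were called higher without replicate 1, 4 without replicate 2 or 4, and 12 without replicate 3, while 0 were lower without any 1 of the arrays.

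**Figure D3:**
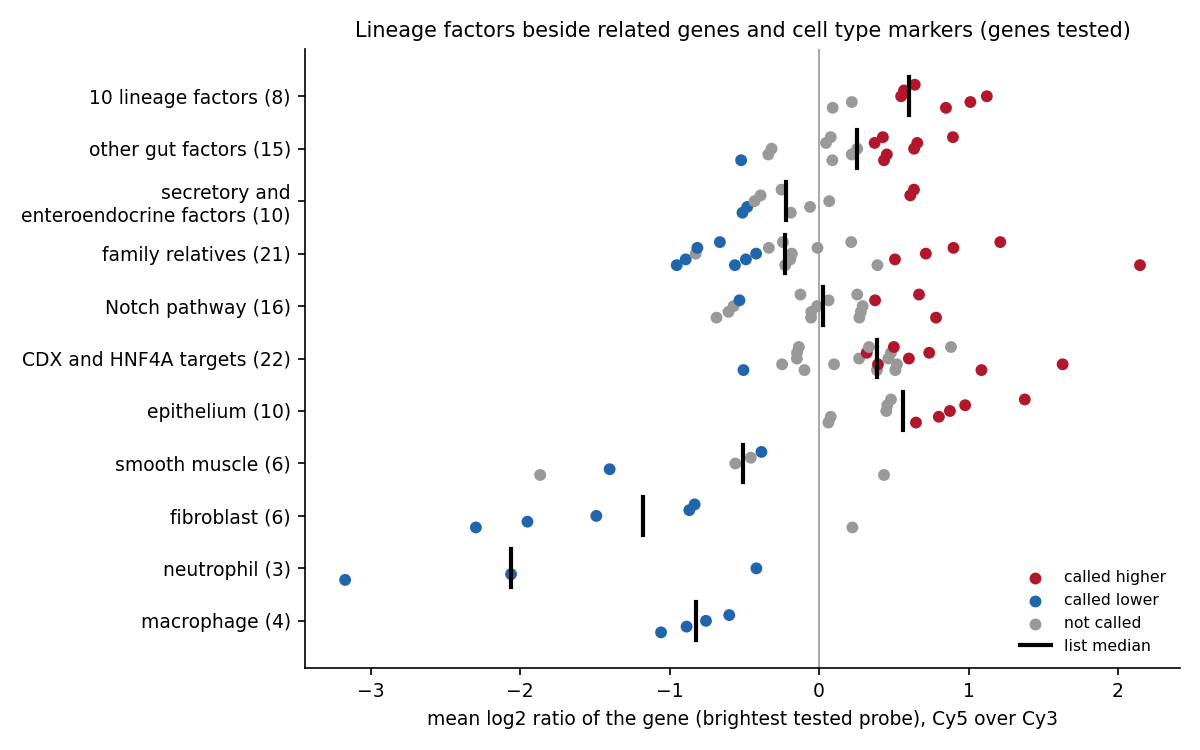
Mean log2 ratio (x axis) of each tested gene (points) of the 10 lineage factors, 5 lists of related genes and 5 lists of cell type markers (rows, number tested in brackets), coloured by call, with the list median as a black line. The median of the lineage factors (0.60) lies close to that of the epithelial markers (0.56), and the medians of the stromal and white blood cell lists lie below 0.

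Cell type markers moved in the same comparison, and their part in the results for the lineage factors was not tested. The shares over all genes were 25.7% higher and 19.6% lower. Of the 10 epithelial markers, all were tested, 5 were called higher and 0 lower (0 also at an unadjusted p under 0.05, as in the next 2 lists), with a median of 0.56 and a range of 0.06 to 1.38; Epcam stood at 0.46 ± 0.19 and Cdh1 at 0.08 ± 0.24, neither called. Of 8 colonocyte markers 3 were higher and 0 lower (median 0.62, range 0.01 to 1.19), and of 5 goblet cell markers 2 were higher and 0 lower (median 0.43, range 0.09 to 1.63). Of 6 fibroblast markers 5 were lower (median -1.18, range -2.30 to 0.22), all 3 neutrophil markers tested were lower (median -2.06), as were all 4 macrophage markers (median -0.82) and all 3 endothelial markers (median -0.49). Of 6 smooth muscle markers 2 were lower and 0 higher (median -0.51, range -1.87 to 0.43). At an unadjusted p under 0.05 in the same limma fit, 4 of them were lower and 1 higher. Transcripts typical of the exocrine pancreas, an organ outside the labelled tissue, were lower for 4 of 5 genes (median -1.89), with Amy2a3 at -5.52 ± 0.18 and Ctrb1 at -2.55 ± 0.10. For Amy2a3 no array was well above background in the resveratrol channel, and the approximate bound was 22.5-fold lower. Both tested red blood cell markers were lower (median -1.65).

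Set against the epithelial markers of the same array, whose median ratio was 0.67, 0.90, 0.15 and 0.71 on replicates 1 to 4, the lineage factors spread to both sides. Krt19 had no value on replicate 2, Krt8 none on replicate 3 and Tjp3 none on replicates 3 and 4, so those medians rest on fewer markers. The median over the 8 tested factors was -0.05 after this subtraction. Cdx1 stayed above the epithelial median on 4 of 4 arrays, by 0.67, 0.11, 0.72 and 0.55 (mean 0.51). Gata6 probe 4 did so by 0.41, 0.23, 0.99 and 0.39 (mean 0.51) and the upstream Hnf4a probe by 0.40 on average. Gata6 probe 1, which stands for the gene, was above the epithelial median on 1 of 2 arrays (mean -0.15), probe 2 on 3 of 4 (mean 0.04) and probe 3, whose control channel was not above background, on 4 of 4 (mean 0.36). Elf3 was above it on 3 of 4 arrays (mean 0.24). Hes1 was above it on 2 of 4 (mean -0.04), and the Klf5 probes were above it on 1 and 2 of 4 arrays (means -0.06 and -0.01). Klf4 lay below it on all 4 arrays (mean -0.39), Cdx2 on both arrays measured (mean -0.69) and the downstream Hnf4a probe on all 4 (mean -1.07). In all, 4 of the 13 tested probes lay above the epithelial median on every array measured, 3 below it and 6 on both sides. Among those above it was Gata6 probe 3, which passed the filter only through the resveratrol channel. These are differences of ratios on 4 arrays and carry no test. They were taken with flagged spots left out only. The low epithelial median of replicate 3 (0.15) enters the excesses on that array, such as 0.99 for Gata6 probe 4.

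**Figure D4:**
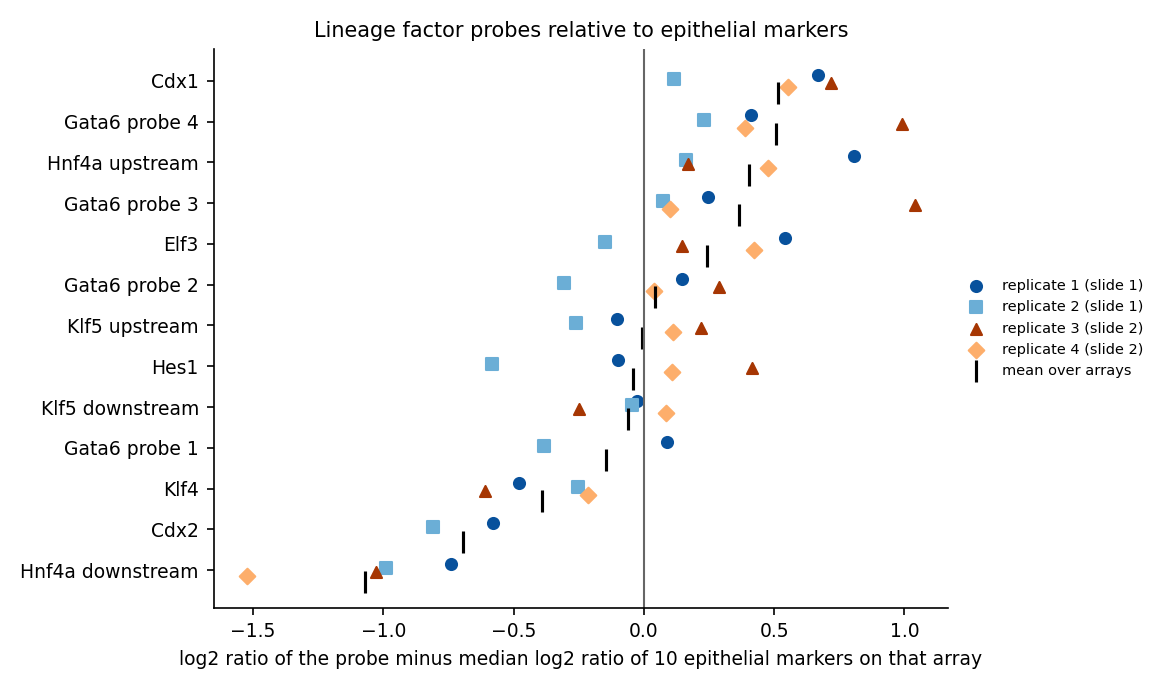
Log2 ratio of each tested probe of the lineage factors minus the median log2 ratio of the epithelial markers (those of the 10 with a value) on the same array (x axis), by array (symbols) with the mean as a black bar. Cdx1, Gata6 probe 4 and the upstream Hnf4a probe lie to the right of 0 on all 4 arrays, as does Gata6 probe 3, whose control channel was not above background, and Klf4, Cdx2 and the downstream Hnf4a probe to the left.

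Across the alternative settings, the calls for Cdx1 (ratio between 1.05 and 1.60 in 20 settings) and for Gata6 probe 4 (20 settings) and probe 3 (19 settings) kept their direction and stayed past the threshold in each. Gata6 probes 2 and 3 were not tested in the setting with both channels above background on all arrays. Since they passed the filter only through the resveratrol channel, the persistence of the probe 3 call is no separate support. Probe 1, which carries the call for the Gata6 gene, lost it in the authors' value table (0.46, adjusted p = 0.0962), with an intensity trend in the prior (adjusted p = 0.165) and with the widened standard error (adjusted p = 0.104), and Gata6 probe 2 lost it on slide 2 alone (adjusted p = 0.0648). On slide 2 alone, with 2 arrays, 2 of the 7 factors tested there were called higher and 407 genes in all. On slide 1 alone 7 factors were called higher. Elf3 and Hes1 kept their direction in all 20 settings, and lost the call on slide 2 alone (adjusted p = 0.0903 and 0.0517) and with the widened standard error (adjusted p = 0.0640 and 0.0574).

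**Figure D5:**
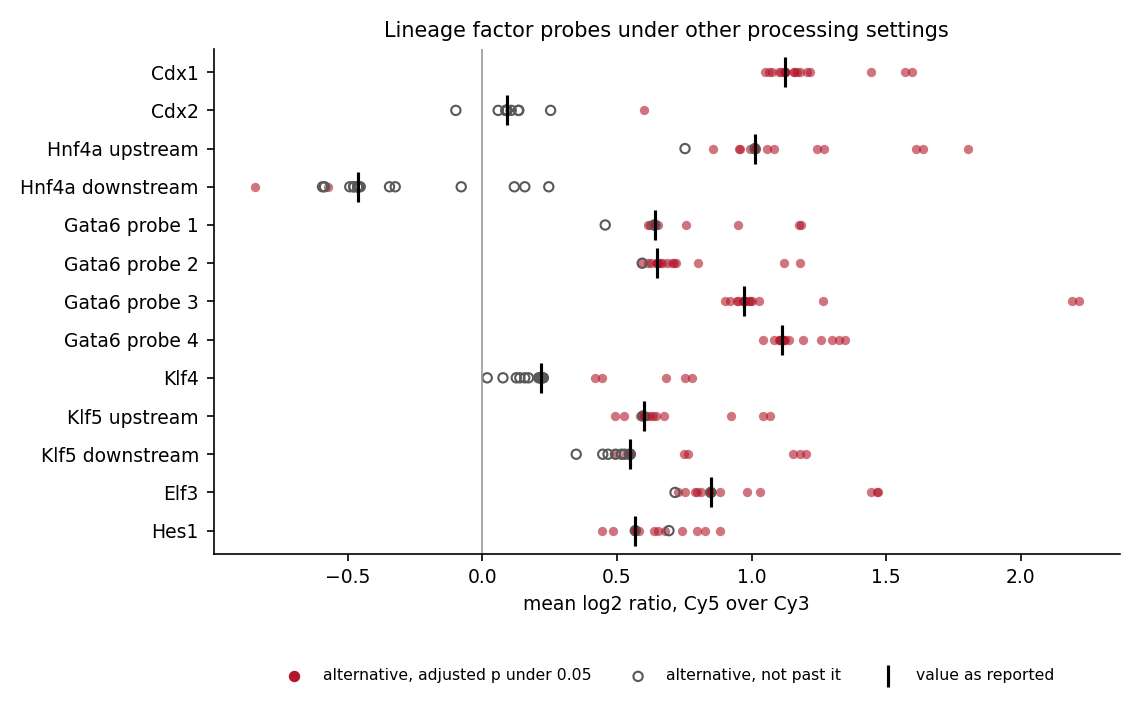
Mean log2 ratio (x axis) of the 13 tested probes of the lineage factors (rows) under each alternative setting, filled red where the adjusted p passed 0.05 and open where it did not, with the reported value as a black bar. All settings of Cdx1, Gata6, Klf5, Elf3 and Hes1 lie to the right of 0, whereas those of the downstream Hnf4a probe lie on both sides.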

How the data were processed

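RNA of 4 pairs of resveratrol rats was hybridised against a control pool on 2-colour arrays; replicates are numbered in accession order. Per the file headers, Agilent Feature Extraction 9.5.3.1 produced the intensity values and the log10 ratio of each spot that the authors deposited. Both that software and limma appear in the submitters' processing notes. The authors' value table holds log2 ratios of Cy5 over Cy3, which followed the scanner ratios with r between 0.981 and 0.992; its centring is not stated, and its column medians were -0.01, -0.01, 0.09 and -0.02. The sources do not say how many control rats the pool held or whether every array held the same pool.

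With limma 3.58.1 (R 4.3.3), normexp at an offset of 50 was applied to mean spot signals and their local background medians, followed by loess within each array. Outlier-flagged spots and the 1639 control spots (of 45018 in all) had weight 0 and were left out. Spots of a probe were averaged and the mean ratio was tested with lmFit and eBayes, two-sided. Of 41012 probes, 20409 passed the filter on dim probes and 18869 kept at least 2 values. Names came from accessions and symbols through RefSeq (GRCr8), and rn3 coordinates from the files; exon and UTR positions were not analysed here. Bounds on a fold used channel levels after loess and Aquantile. The fit was tried on simulated data with noise drawn independently for each probe and array. That simulation held no slide effect, dye effect or error of a shared control pool, so it does not address those limits. All 10 factors are named with every probe; of each list of related genes, up to 3 called genes in each direction, by size; of marker lists, at most the first 2. Some genes that this rule takes are not reported here. The members and lists were chosen with earlier results of these data known. The number of arrays limits the precision.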

Additional observations from a re-analysis of the deposited data

How the results depend on the processing

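No paired analysis was possible because the labels number no control samples that could be paired with the replicates. Alternatives were another background correction or offset, median centring, processed signals as scanned, the value table of the authors, other filters, flagged spots kept, a trended prior, each array left out, slide as a block (consensus correlation 0.22) or alone, a standard error widened by the square root of 2, the probe mean, hexamer probes left out and, chosen after seeing the data, base composition removed and flagged spots kept with median centring. The median over the lineage factors moved from 0.60 to 1.17 with median centring, 1.17 with flagged spots kept, 0.95 with both and -0.050 after subtracting the epithelial markers, and lay between 0.56 and 0.88 with an array left out. These medians are not all over the same factors and probes. Without replicate 1 or 2, 7 factors were tested: Cdx2 dropped out and Gata6 was read by another probe than probe 1. Median centring moved the median of all genes to 0.25, and its ratios hold relative to that. Factors called higher numbered 2 of 7 tested on slide 2 alone, 1 with the widened error and 5 to 7 with an array left out; 1 was called lower with flagged spots kept. Cdx2 turned to -0.10 in the authors' table. The downstream Hnf4a probe turned to 0.12 with median centring, 0.25 with flagged spots kept and 0.16 with both. The cause of these shifts was not tested. Over all genes, calls higher and lower (2420 and 1844) became 1418 and 902 with both channels above background on all arrays, 407 and 435 on slide 2 alone and 765 and 270 with the widened error, with 721 lower under median centring and 521 with flagged spots kept too; an array left out gave 1031 to 2500 and 574 to 1829. Over all probes (4597 and 4289) the same settings gave 2584 and 1967, 747 and 1002, 1456 and 724, 1839 lower and 1406 lower, and 1946 to 4751 and 1426 to 4213. Of secretory factors (2 higher, 2 lower), 1 was higher with both channels above background and 0 on slide 2 alone or with the widened error; 0 were lower with median centring, both channels above background, the slide block, the widened error, base composition removed or flagged spots kept with median centring, and 4 with flagged spots kept; an array left out gave 1 to 2 higher and 1 to 3 lower. Of other gut factors (7 and 1), 3, 2 and 1 were higher with both channels above background, on slide 2 alone and with the widened error; 0 were lower with median centring, slide 2 alone or the widened error, 2 with processed signals, the authors' table or slide 1 alone and 3 with flagged spots kept; an array left out gave 3 to 7 and 0 to 1. Of family relatives (5 and 7), 2 were higher on slide 2 alone and 3 with the widened error; 4 were lower with median centring or on slide 2 alone, 3 with flagged spots kept as well as median centring and 1 with the widened error; an array left out gave 4 to 6 and 4 to 7. Of Notch genes (3 and 1), 5 were higher with median centring, 7 with flagged spots kept and 1 on slide 2 alone or with the widened error; 2 were lower with the offset of 10, processed signals, the trended prior or base composition removed, 3 with the authors' table, no filter or slide 1 alone, 4 with flagged spots kept and 0 with both channels above background, slide 2 alone, the widened error or flagged spots kept with median centring; an array left out gave 2 to 4 and 0 to 1. Of CDX and HNF4A targets (7 and 1), 15 were higher with median centring, flagged spots kept or both, 12 on slide 1 alone, 4 with both channels above background, 3 on slide 2 alone and 1 with the widened error; 2 were lower with flagged spots kept and 0 with both channels above background, slide 1 alone, the widened error, the probe mean or flagged spots kept with median centring; an array left out gave 3 to 12 and 0.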
